A study of Mus musculus with 3 samples.

Results

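Cholesterol and fatty acid synthesis genes were examined in cultured mouse neural progenitors 4 h after electroporation. The set holds 28 genes, chosen by symbol from the 32285 genes listed with the matrices: 18 sterol pathway enzymes, 5 regulators of the pathway, the sterol carrier Stard4 and 4 fatty acid genes. The choice was made with earlier results of these data known, so contrasts with all genes are not an independent check. Each gene was summed over barcodes with at least 3000 UMIs (unique molecules counted), 500 genes or more and no more than 20% mitochondrial UMIs. All 28 genes reached a mean of 5 CPM (UMIs scaled to the same total over each library's cells) over the 3 libraries. UMIs count transcript 3′ ends and do not scale with transcript length, so CPM can be compared between genes without a length correction.

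The cells were neural progenitors, which can form neurons and glia, taken from brains of postnatal day 1 mice. They grew as neurospheres with N2 and B27 supplements and 20 ng/mL human epidermal growth factor. For each condition 50000 cells were plated on poly-D-lysine and cultured for 16 h. The control library came from cells labelled only as control, and whether they sat on dishes or on devices is unstated in the labels. The bulk electroporation library came from plated cells pulsed in a Lonza Nucleofector. The localized electroporation library came from cells on a localized electroporation device that were given 400 pulses of 20 V. No cargo, mouse strain or number of pooled mice is given in the sources used here. Each condition had 1 library, so no difference has a replicate check, no test was possible, and a condition cannot be told apart from its own library.

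Cells make cholesterol from acetyl-CoA through mevalonate, squalene and lanosterol, and the growing brain depends on its own synthesis because plasma cholesterol hardly enters it. The transcription factors SREBP1 and SREBP2, made from Srebf1 and Srebf2, switch on most of these enzymes. When membrane sterol is plentiful, INSIG proteins hold the escort protein SCAP and its SREBP cargo in the endoplasmic reticulum, and when sterol is scarce SCAP carries SREBP to the Golgi, where it is cut and released to the nucleus. Insig1 is itself an SREBP target. The stearoyl-CoA desaturases and fatty acid synthase build the acyl chains of membranes and lipid droplets.

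The promoters of 4 enzymes are shown because Hmgcs1 and Mvd were at least 1.5-fold lower in bulk electroporation than in control, while Ebp was level with control and Pmvk was higher. The sequences are the 250 bases before the first-listed RefSeq start on GRCm38.p6, 5′ to 3′ along the gene, at chr13:119690101-119690350 (plus strand) for Hmgcs1, chr8:122443423-122443672 (minus strand) for Mvd, chrX:8193513-8193762 (minus strand) for Ebp and chr3:89454291-89454540 (plus strand) for Pmvk. Capitals mark matches to the sterol regulatory element of SREBP, searched as TCACNCCAC, and to the NF-Y box CCAAT, on either strand.
Hmgcs1: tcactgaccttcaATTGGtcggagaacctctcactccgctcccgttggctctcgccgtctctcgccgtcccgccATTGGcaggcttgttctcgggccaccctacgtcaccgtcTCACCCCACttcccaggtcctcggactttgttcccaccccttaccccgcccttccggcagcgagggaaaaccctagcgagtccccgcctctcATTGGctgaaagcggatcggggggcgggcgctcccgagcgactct
Mvd: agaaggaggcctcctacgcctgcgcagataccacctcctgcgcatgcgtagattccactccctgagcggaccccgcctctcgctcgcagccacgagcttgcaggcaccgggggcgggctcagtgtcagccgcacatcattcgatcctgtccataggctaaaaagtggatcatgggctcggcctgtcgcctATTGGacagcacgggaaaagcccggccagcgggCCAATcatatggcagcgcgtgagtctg
Ebp: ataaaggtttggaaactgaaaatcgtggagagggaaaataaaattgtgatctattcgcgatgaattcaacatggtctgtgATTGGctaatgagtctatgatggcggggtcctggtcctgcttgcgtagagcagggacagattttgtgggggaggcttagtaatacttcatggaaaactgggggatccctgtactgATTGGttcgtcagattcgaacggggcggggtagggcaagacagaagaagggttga
Pmvk: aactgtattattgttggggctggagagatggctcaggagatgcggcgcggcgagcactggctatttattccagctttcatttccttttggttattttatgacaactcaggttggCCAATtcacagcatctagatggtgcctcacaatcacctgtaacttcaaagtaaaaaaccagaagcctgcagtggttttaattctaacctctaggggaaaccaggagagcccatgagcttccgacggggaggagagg
Hmgcs1 holds the sterol regulatory element 137 to 129 bases before its start and 3 CCAAT boxes, Mvd and Ebp hold 2 CCAAT boxes each and Pmvk holds 1. Of the 28 genes, 22 had a promoter in the RefSeq table. The CCAAT box was present in 18 of the 22 (81.8%), against 34.5% of all 27025 promoters and 37.3% of the 7633 promoters of genes with a mean of at least 5 CPM. TCACNCCAC was present in 1 of the 22, against 1.04% of all promoters and 0.891% of those 7633. Only this pattern was searched, so sterol regulatory elements with other letters or outside the 250 bases would be missed. The Sp1 motif GGGCGG was present in 16 of the 22 (72.7%), against 32.9% and 63.0%. The E-box CACGTG was present in 3 of the 22, against 6.05% and 8.90%. All motifs were searched on both strands of the 250 bases, and the marked matches of the printed promoters do not overlap one another. At the first-listed starts, which all these counts use, CCAAT was thus present in Hmgcs1 and Mvd and also in Ebp and Pmvk. Some genes have further listed starts. The second Pmvk start (250 bases at chr3:89459321-89459570) held 0 CCAAT boxes. Dhcr7, counted as without the box, held 2 at a later start. Insig2, counted as with it, held 0 at its later starts.

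The matrices held between 74429007 and 85743257 UMIs per library, and after filtering 6091 control, 5531 bulk and 6298 localized cells remained, with median depths of 9542, 11644 and 10980.5 UMIs. Between 6 and 9 cell barcodes were shared by any pair of libraries. No doublet caller was run, so doublets remain. All 8 neural stem or progenitor markers were measured, with summed levels of 7483 CPM in control, 8459 CPM in bulk and 10313 CPM in localized electroporation. The 5 microglial markers summed to at most 0.194 CPM in any library, with Aif1 at 0 in all 3. The 4 endothelial markers summed to at most 3.22 CPM, with Cldn5 at 0. The 7 oligodendrocyte precursor markers summed to 607, 673 and 876 CPM and the 7 oligodendrocyte markers to 72.2, 64.5 and 156 CPM in control, bulk and localized electroporation. Without the clusters these markers lead (3, 4 and 6, described with the clusters), the median log2 ratio of the 18 sterol enzymes was -0.62 for bulk over control and 0.04 for localized over control, beside -0.62 and -0.04 with them.

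Bulk electroporation was set against control first, at 4 h after treatment. Sterol synthesis transcripts were lower along nearly the whole pathway. The 18 enzymes summed to 2556 CPM (exact Poisson 95% interval 2544 to 2569) in the control library, and in bulk to 1632 CPM (1623 to 1641). Intervals here and below cover counting error only. In the bulk library 17 of 18 enzymes were lower, against 35.2% of the 9535 genes with a mean of at least 5 CPM, and 10 of 18 were at least 1.5-fold lower, against 1.78%. The median log2 ratio of the 18 enzymes was -0.62, beside 0.09 over all those genes, with a pseudocount of 1 CPM. In cells of 6000 to 20000 UMIs alone, 6 of 18 enzymes were at least 1.5-fold lower, against 1.46% of genes.

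The mevalonate steps, which build isoprenoid units from acetyl-CoA, summed to 1456 CPM in control and 1043 CPM in bulk. Hmgcs1, which makes HMG-CoA, stood at 476 CPM (471 to 482) in control, 304 CPM (300 to 308) in bulk cells and 475 CPM (470 to 480) in localized electroporation. The bulk library was low and the other two were level, with a log2 ratio of -0.65 for bulk over control. Fdps, the farnesyl diphosphate synthase, stood at 455 CPM in control, 307 CPM in bulk and 397 CPM in localized electroporation, a log2 ratio of -0.56 for bulk over control. Mvd, the mevalonate diphosphate decarboxylase, had the lowest ratio of the mevalonate steps, -0.88, at 44.9 CPM in control, 24.0 CPM in bulk and 44.2 CPM in localized electroporation. Acat2, an acetyl-CoA acetyltransferase that starts the route, stood at 67.6, 45.2 and 75.6 CPM in the same order, a log2 ratio of -0.57. Idi1, the isopentenyl diphosphate isomerase, stood at 238, 186 and 306 CPM, so control lay between bulk and localized electroporation. Mvk, the mevalonate kinase, also had its lowest level in bulk, at 70.6, 58.7 and 80.9 CPM. Pmvk, the phosphomevalonate kinase, was the exception among the 18 enzymes, at 104 CPM in control, 118 CPM in bulk and 138 CPM in localized electroporation, a log2 ratio of 0.18 for bulk over control.

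The 3 steps from farnesyl diphosphate to lanosterol were at least 1.5-fold lower in bulk in 3 of 3 cases. Fdft1, the squalene synthase, stood at 138 CPM (135 to 141) in control, 72.8 CPM (70.9 to 74.7) in bulk cells and 119 CPM (116 to 121) in localized electroporation. Lss, the lanosterol synthase, stood at 35.9, 18.5 and 33.2 CPM in the same order. Both had a log2 ratio of -0.92 for bulk over control. Sqle, the squalene epoxidase and a rate-controlling step, had a ratio of -0.66, at 121, 76.3 and 105 CPM. In all 3 genes bulk was the lowest library and control the highest.

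The steps after lanosterol summed to 806 CPM in control, 421 CPM in bulk and 622 CPM in localized electroporation. Msmo1, the sterol-C4 methyl oxidase, lies on GRCm38 chromosome 8, 64718139 to 64733792, minus strand (ENSMUSG00000031604), and had the lowest ratio of the whole set. It stood at 313 CPM (309 to 318) in control, 122 CPM (119 to 124) in bulk cells and 199 CPM (196 to 202) in localized electroporation. Its log2 ratio of bulk over control was -1.36, and 0.210% of the 9535 genes had a lower one. Cyp51, the lanosterol demethylase, stood at 250, 130 and 199 CPM in control, bulk and localized electroporation, a ratio of -0.94 for bulk over control. Hsd17b7, a sterol ketone reductase, stood at 28.7, 15.1 and 24.8 CPM, with a ratio of -0.88. Nsdhl, the dehydrogenase that works with Msmo1, stood at 56.7, 37.2 and 54.9 CPM, and Sc5d, the sterol desaturase, at 64.0, 39.8 and 49.5 CPM. Both were at least 1.5-fold lower in bulk than in control. Dhcr7, which completes cholesterol, stood at 38.8, 27.4 and 37.7 CPM, and Tm7sf2, a sterol reductase, at 19.8, 16.0 and 19.6 CPM, with ratios of -0.49 and -0.29. Ebp, the sterol isomerase, was the late enzyme whose counting intervals overlapped between control and bulk, at 34.4 CPM (33.0 to 35.9) in control and 34.3 CPM (33.0 to 35.6) in bulk. Its ratio of -0.01 became positive in 3 of the alternatives.

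**Figure D1:**
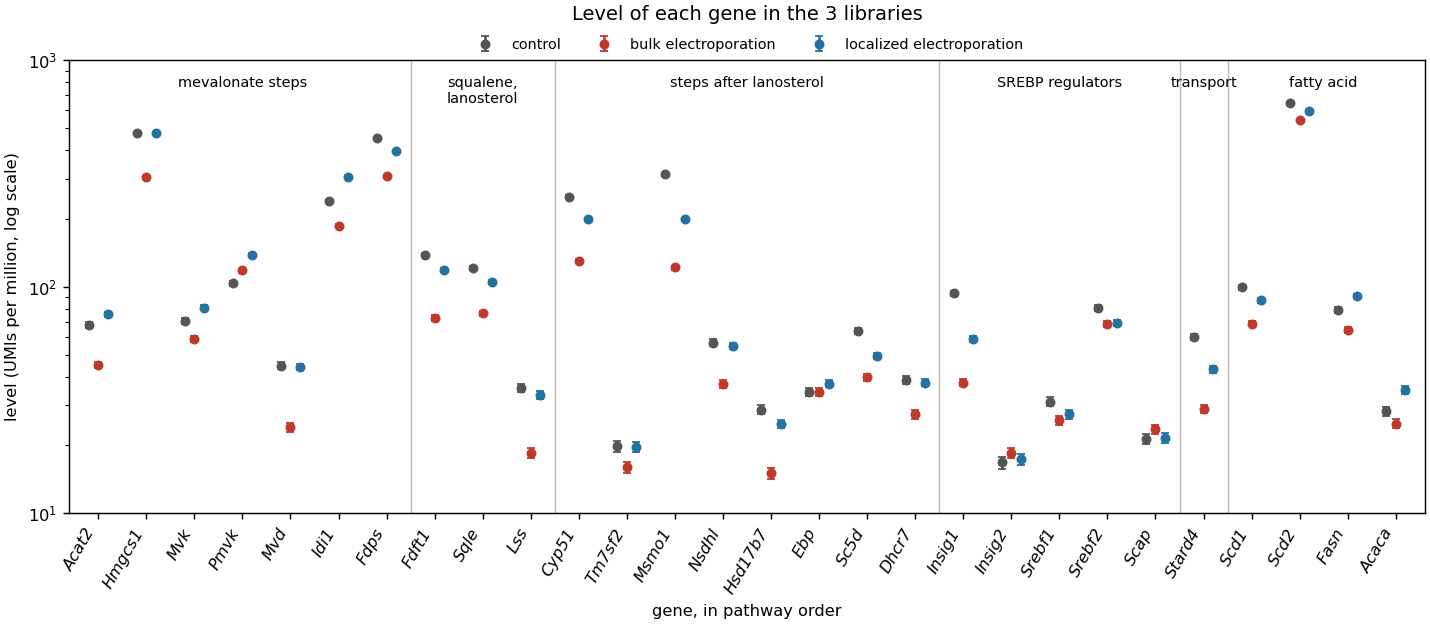
Levels of the 28 genes in control, bulk and localized electroporation, on a log scale of CPM with exact Poisson 95% intervals, ordered by pathway step. For Msmo1 the order is control at 313, localized at 199 and bulk at 122 CPM, while the 3 points of Ebp lie close together.

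Of the regulators, Insig1 had by far the lowest ratio. Insig1, the feedback protein that retains SCAP, lies on GRCm38 chromosome 5, 28071363 to 28078662, plus strand (ENSMUSG00000045294). It stood at 93.5 CPM (91.1 to 95.9) in control, 37.7 CPM (36.4 to 39.1) in bulk cells and 58.9 CPM (57.2 to 60.7) in localized electroporation. Bulk was lowest, localized electroporation in between and control highest, with a log2 ratio of -1.29 for bulk over control, below which 0.252% of genes lay. Insig2, its less sterol-responsive relative, stood at 16.8, 18.5 and 17.3 CPM in the same order, and Scap at 21.3, 23.5 and 21.6 CPM, so neither was lower in bulk. Srebf2 stood at 80.6, 68.5 and 69.1 CPM and Srebf1 at 31.1, 25.7 and 27.3 CPM, ratios of -0.23 and -0.27 for bulk over control. Transcript levels say nothing of how much SREBP was cut and nuclear. Stard4, a carrier that moves cholesterol between membranes, stood at 60.2, 28.8 and 43.3 CPM, a ratio of -1.04. Msmo1, Insig1 and Stard4 were the 3 of 28 genes at least 2-fold lower in bulk than in control, against 0.535% of all genes. Stard4 did not reach 2-fold in cells of 6000 to 20000 UMIs, where its ratio was -0.88, nor with a pseudocount of 5 CPM, without cluster 5 or after thinning to 3000 UMIs.

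The 4 fatty acid genes were also lower in bulk. They summed to 856 CPM (848 to 863) in control and 705 CPM (699 to 711) in bulk, with a median log2 ratio of -0.27 beside -0.62 for the sterol enzymes. All 4 were lower, against 35.2% of genes, and 0 of 4 were at least 1.5-fold lower, against 1.78%, so the second count is near the background. Scd2, the main brain stearoyl-CoA desaturase, was the most abundant of the 28 genes, at 649 CPM in control, 547 CPM in bulk and 599 CPM in localized electroporation. Scd1, its relative, stood at 99.3, 68.8 and 87.2 CPM, and had the lowest ratio of the 4, -0.52, which was past 1.5-fold only with median-of-ratios scaling, at -0.62. Fasn, the fatty acid synthase, stood at 78.9, 64.4 and 91.0 CPM, and Acaca, which makes malonyl-CoA, at 28.2, 24.8 and 34.9 CPM. For these last 2 genes localized electroporation was the highest library. The difference between the sterol and fatty acid medians was not tested.

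**Figure D2:**
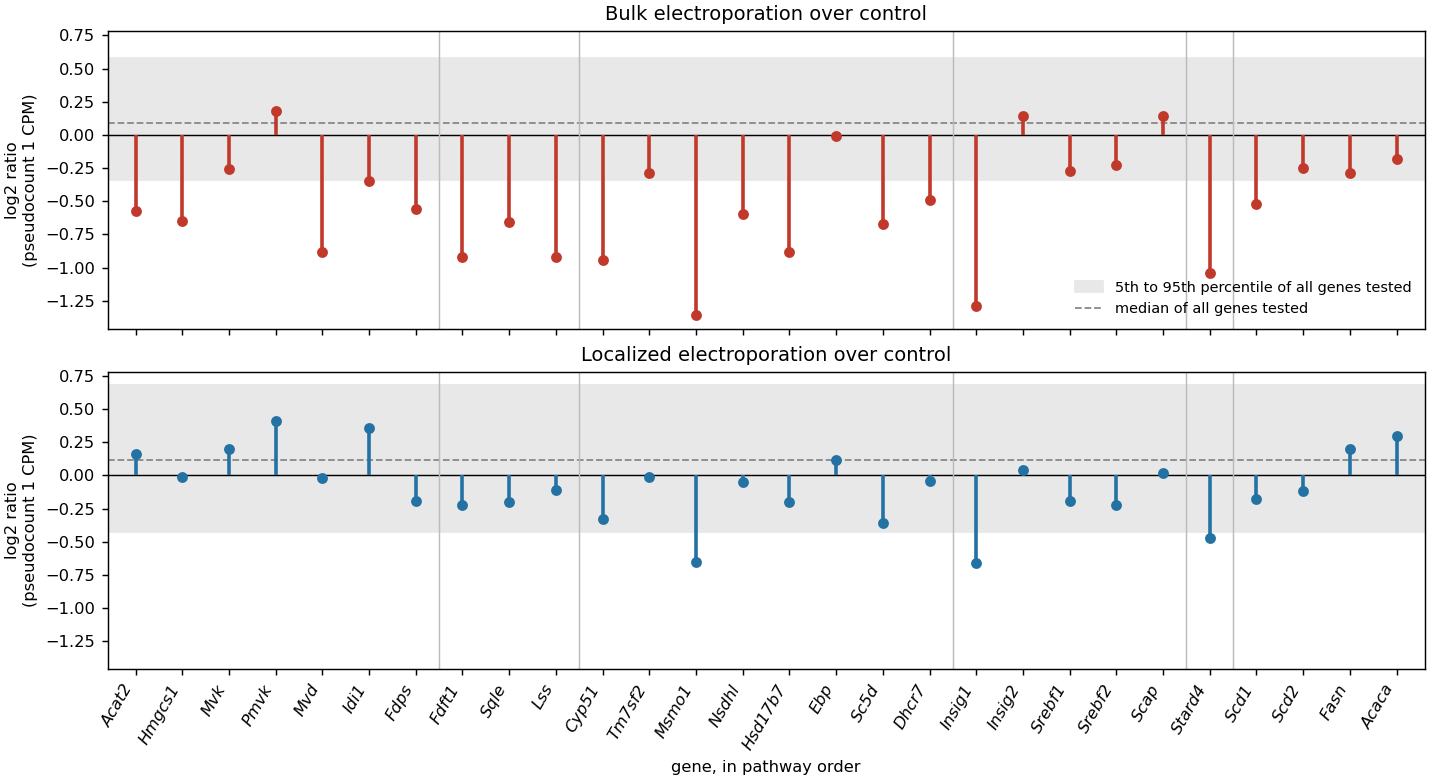
Log2 ratios of the 28 genes for bulk over control (upper panel) and localized over control (lower panel), in pathway order, with the median (dashed) and the 5th to 95th percentile (grey) of the 9535 genes. The points of bulk over control lie below 0 for 25 of 28 genes and reach -1.36 at Msmo1.

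Localized electroporation was set against the same control library, so the comparisons with control share it. Summed over all 18 enzymes the pathway was near its control level, but its segments differed. The 18 enzymes summed to 2395 CPM (2385 to 2407) and their median log2 ratio was -0.04, beside 0.12 over all genes. Of the 18, 13 were lower, against 34.1% of genes, and 1 of 18, Msmo1, was at least 1.5-fold lower, against 2.61%. In the largest cluster 6 of 18 were lower, against 33.0% of genes, so that count is near the background. The ratios of Hmgcs1, Mvd, Fdft1, Lss, Tm7sf2, Nsdhl and Dhcr7 were positive there. Insig1 was the second of the 28 genes past 1.5-fold, with a log2 ratio of -0.66 next to -0.65 for Msmo1. Neither call held in every setting, since Insig1 had -0.56 with free RNA taken away and Msmo1 -0.49 in the largest cluster. Stard4 had -0.47, Sc5d -0.36 and Cyp51 -0.33. On the other side Pmvk had 0.41, Idi1 0.36, Acaca 0.30, Mvk and Fasn 0.20 each, and Acat2 0.16. The mevalonate steps had a median of 0.16, the steps to lanosterol -0.20 and the steps after lanosterol -0.12. As sums, the mevalonate steps stood at 1517 CPM in localized electroporation against 1456 CPM in control. The steps to lanosterol stood at 257 against 295 CPM and the steps after lanosterol at 622 against 806 CPM. The fatty acid median was 0.04 and became -0.08 with median-of-ratios scaling, which shifts the all-gene median by -0.12. The small positive ratios of Ebp, Insig2 and Scap also turned negative with it.

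A last comparison set the electroporated libraries against each other. All 18 sterol enzymes were lower in bulk than in localized electroporation, against 54.6% of genes, and 9 of 18 were at least 1.5-fold lower, against 3.26%. That count was 5 in cells of 6000 to 20000 UMIs and 4 after every cell was thinned to 3000 UMIs. The median log2 ratio of the enzymes was -0.58, beside -0.03 over all genes. Mvd had the lowest ratio, -0.86, followed by Lss at -0.81, Acat2 at -0.73 and Idi1 at -0.72. The fatty acid genes had a median of -0.41, and Fasn and Acaca, with -0.49 and -0.48, lay below Scd1 at -0.34 and Scd2 at -0.13. Srebf2 had -0.01 and Srebf1 -0.08, so over all cells the transcripts of the SREBP genes were close in the electroporated libraries while those of the enzymes were not. The enzyme medians were -0.60, -0.51 and -0.56 in clusters 0 to 2, described below, but -0.03 and -0.21 in clusters 3 and 4. In cluster 3, 10 of 18 enzymes were lower, against 52.8% of genes, and 0 were at least 1.5-fold lower, against 3.43%.

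The per-cell values had the same order. The share of a cell's UMIs that came from the 18 enzymes had a median of 0.207% in control, 0.134% in bulk cells and 0.203% in localized electroporation. The quartiles were 0.125 to 0.345, 0.0870 to 0.215 and 0.124 to 0.316. The bulk distribution was lower at each quartile, and its upper quartile lay close to the control median. After every cell was thinned to 3000 UMIs, no UMI of the 18 enzymes was left in 2.23% of control cells (exact Clopper-Pearson interval 1.88 to 2.64), 4.70% of bulk cells (4.16 to 5.29) and 2.72% of localized cells (2.33 to 3.15). A Msmo1 UMI was found in 52.5% of control, 28.3% of bulk and 39.4% of localized cells after thinning, and in 80.6%, 60.8% and 74.3% without it. An Insig1 UMI was found in 22.3%, 10.0% and 15.8% after thinning, and in 48.2%, 33.6% and 44.4% without it. No cell class of these cultures should lack the genes, so a background share could not be read from one. In barcodes of 10 to 100 UMIs, which carry mostly free RNA, the 18 enzymes stood at 2193, 1159 and 1692 CPM in control, bulk and localized electroporation, the same order as in cells.

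**Figure D3:**
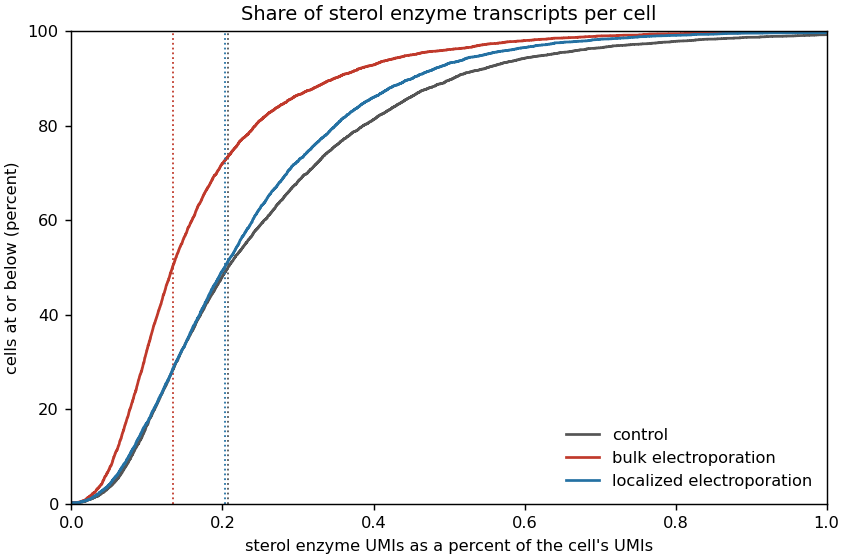
Cumulative percent of cells (vertical axis) at or below each share of the cell's UMIs from the 18 sterol enzymes (horizontal axis, percent), 1 line per library, with dotted lines at the medians. The medians are 0.207% in control, 0.134% in bulk cells and 0.203% in localized electroporation.

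Within each library, cells with an Insig1 UMI held more sterol enzyme transcripts. After thinning, control cells with an Insig1 UMI stood at 3597 CPM for the 18 enzymes (1356 cells) and those without at 2330 CPM. The same values were 2558 and 1666 CPM in bulk and 3198 and 2249 CPM in localized electroporation. Bulk cells with an Insig1 UMI lay between the control cells with and without one. The level also moved with depth in bulk, from 2005 CPM in cells of 3000 to 6000 UMIs to 1388 CPM in cells of at least 20000 UMIs, against 2822 and 2619 CPM in control and 2015 and 2346 CPM in localized electroporation. Within each of the 4 depth ranges bulk lay below control, but below 6000 UMIs localized electroporation was as low as bulk. In bulk, 34.7% of cells held a UMI of 5 interferon-response genes after thinning, and these stood at 1536 CPM (1505 to 1569) for the enzymes against 1872 CPM (1846 to 1898) in bulk cells without one. Both were below the 2610 CPM (2587 to 2634) of control cells without such a UMI. The bulk cells with such a UMI were also deeper, with a median of 13454 against 10820 UMIs, and within cluster 0 the values were 1734 CPM (1674 to 1797) with and 1832 CPM (1784 to 1880) without one, with overlapping intervals.

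Clusters were made without the 28 genes, the wider lipid lists and the 5 interferon-response genes, and named only where fixed markers led them. Cluster 0 (Apoe, Cdkn2b, Hbegf) and cluster 1 (histone genes) stayed unnamed, and cluster 2 (Cdc20, Cenpa, Ccnb1) was dividing-like. Clusters 3 (Sox10, Lhfpl3, Pdgfra) and 4 (Pdgfra, Lhfpl3, Cntn1) were oligodendrocyte precursor-like. Cluster 4 also had 5 dividing markers at least 2-fold above the cells outside it, beside 4 precursor markers. Cluster 2 had 4 dividing markers at that fold. In bulk over control the enzyme median was -0.53, -0.57, -0.62, -0.54 and -0.50 in clusters 0 to 4, beside all-gene medians of 0.06 to 0.11. The number at least 1.5-fold lower was 7, 8, 10, 8 and 5 of 18 in the same order, against 2.16%, 1.64%, 1.59%, 2.58% and 2.72% of genes. Msmo1 ranged from -1.16 to -1.40 and Insig1 from -0.92 to -1.28 over the 5 clusters. Idi1 had ratios of both signs, with -0.30, -0.39 and -0.35 in clusters 0 to 2 and 0.12 in both precursor-like clusters.

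**Figure D4:**
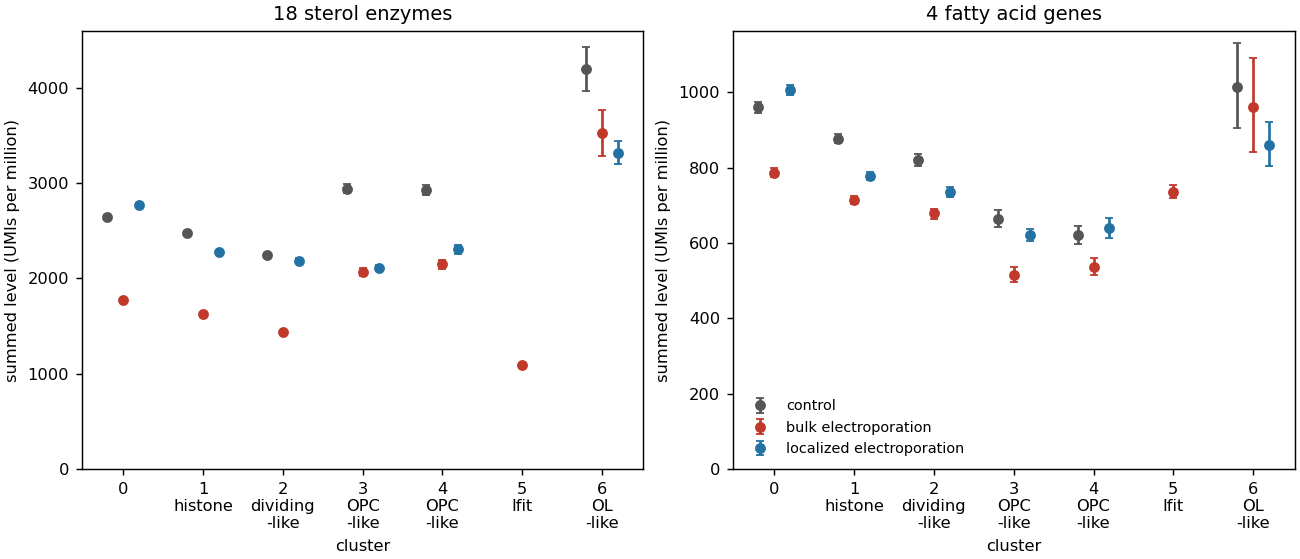
Summed CPM of the 18 sterol enzymes and of the 4 fatty acid genes by cluster and library, with exact Poisson 95% intervals, for clusters 0 to 6 where a library has at least 25 cells (OPC, oligodendrocyte precursor; OL, oligodendrocyte). In cluster 3 control stands at 2943 CPM while bulk and localized electroporation stand at 2068 and 2109 CPM.

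The ratios of localized electroporation over control varied between clusters. In clusters 0, 1 and 2 its enzyme median over control was 0.10, -0.06 and -0.05, while in clusters 3 and 4 it was -0.48 and -0.24. The enzymes in cluster 3 stood at 2943 CPM (2898 to 2988) in control, 2068 CPM (2029 to 2108) in bulk cells and 2109 CPM (2079 to 2139) in localized electroporation, so both electroporated libraries lay at the same level there. In cluster 0 they stood at 2642, 1773 and 2775 CPM. In clusters 0 to 4, the first of them the largest, 0, 1, 1, 5 and 3 of 18 enzymes were at least 1.5-fold lower in localized electroporation than in control, against 3.65%, 3.09%, 3.79%, 2.85% and 4.51% of genes. Fdps had -0.01 in cluster 0 and -0.64 and -0.86 in clusters 3 and 4. Acat2 had 0.38 in cluster 0 and -0.50 and -0.19 in clusters 3 and 4. Median depth in cluster 3 was 5107 UMIs in control, 5905 UMIs in bulk and 7463 UMIs in localized electroporation, and its part in these values was not tested. The difference between clusters was not tested either. The highest enzyme levels of any cluster were in the oligodendrocyte-like cluster 6 (Mbp, Enpp6, Bcas1), at 4194 CPM (3970 to 4427) in 39 control cells, 3522 CPM (3290 to 3766) in 25 bulk cells and 3320 CPM (3206 to 3438) in 57 localized cells. The lowest of a cluster with over 100 bulk cells was in cluster 5, led by Ifit3 and Ccl5, at 1089 CPM (1068 to 1111) in 317 bulk cells.

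**Figure D5:**
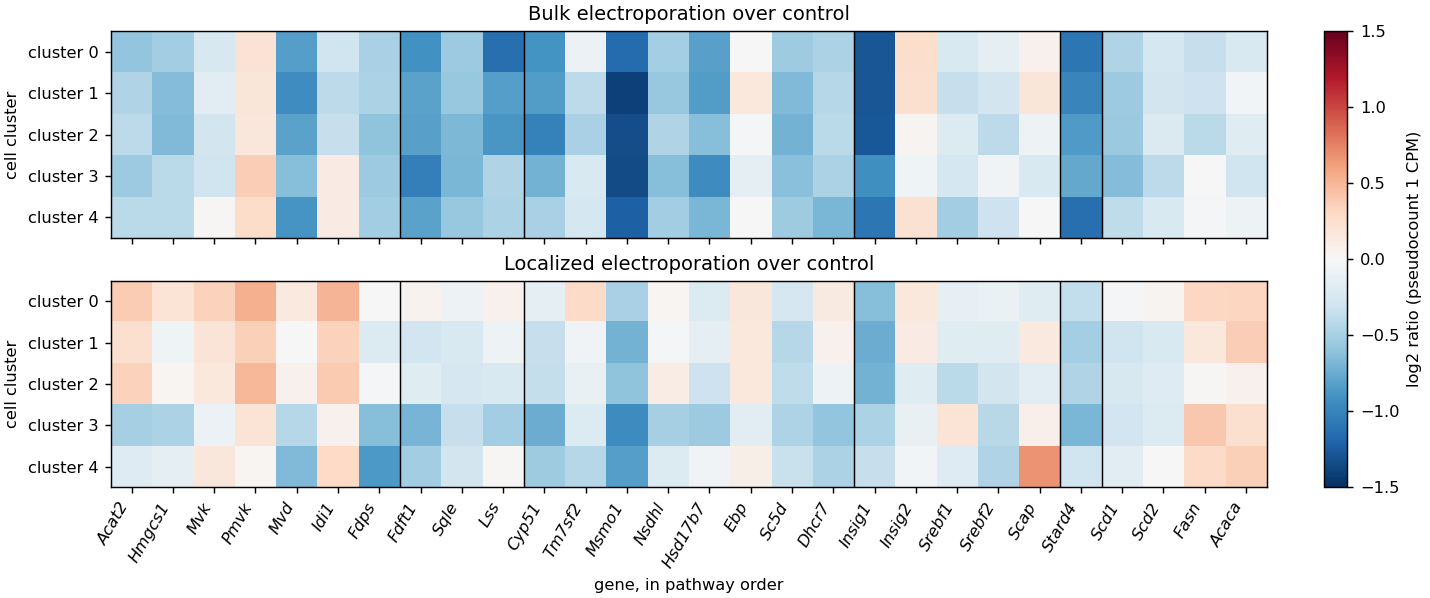
Log2 ratios of the 28 genes within clusters 0 to 4 for bulk over control and localized over control, blue below 0 and red above. Msmo1 and Insig1 are below 0 in all 5 clusters in both comparisons, and Fdps reaches -0.86 in cluster 4 of localized over control.

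Genes around the pathway were given as 59 genes in 6 lists, of which 53 had a mean of at least 5 CPM. The 53 had a median log2 ratio of -0.03 for bulk over control, beside -0.62 for the 18 enzymes, and of 0.04 for localized over control. In bulk over control 2 of 53 were at least 1.5-fold lower and 2 of 53 higher, against 1.78% and 4.98% of genes. The lower genes were Acsl3 and Acss2. Acsl3, which activates long-chain fatty acids, stood at 103 CPM in control, 48.9 CPM in bulk and 73.2 CPM in localized electroporation, and Acss2, which makes acetyl-CoA from acetate, at 36.6, 18.8 and 23.9 CPM. Their ratios of bulk over control were -1.05 and -0.93. Acly, which makes cytosolic acetyl-CoA from citrate, stood at 60.5, 40.9 and 65.6 CPM. The higher genes were Nr1h2, which encodes the oxysterol receptor LXRβ, at 11.8, 22.1 and 21.1 CPM, and Rnf145, a ubiquitin ligase of the endoplasmic reticulum, at 10.5, 18.8 and 24.7 CPM. In localized over control 2 of 53 were at least 1.5-fold lower, Vldlr and Acss2, against 2.61% of genes, and 3 of 53 higher, Rnf145, Nr1h2 and Coq2, against 8.13%. Vldlr, a lipoprotein receptor, was low in 1 library only, at 55.2 CPM in control, 58.9 CPM in bulk and 25.1 CPM in localized electroporation. Of the 6 lists, acetyl-CoA and NADPH supply had a median of -0.28 for bulk over control and 0.17 for localized over control. Of its 7 genes 5 were lower in bulk than in control, against 35.2% of all genes. Within that list Me1 and G6pdx had the highest ratios for bulk over control, 0.28 and 0.21. Fatty acid elongation and desaturation had medians of -0.15 and -0.01 over its 12 genes with a mean of at least 5 CPM, and cholesterol storage and transport 0.02 and 0.12 over 11. The mevalonate branches, which lead to ubiquinone and protein prenylation, had medians of 0.07 and -0.06 in the same comparisons, the partners of the sterol enzymes -0.03 and 0.00, and the SREBP processing genes 0.06 and 0.02.

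Few UMIs were counted for the close relatives that were checked, and the effect of reads shared with them was not tested. Acat3 had 12, 6 and 78 UMIs in control, bulk and localized cells, and Scd3, Scd4 and Idi2 had at most 13 in any library. Hmgcs1, Fdft1, Lss, Cyp51, Srebf1 and Tm7sf2 overlap another gene in the files, and the counting's use of strand is not given in the sources used here.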

How the data were processed

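Single-cell libraries of 3′ transcript ends were made with the 10x Genomics platform from 3 conditions, 1 library each. The deposited matrices hold whole-number UMI counts per gene and barcode, from the authors, with all barcodes included (1591037 to 1726139 per library). Per the file headers, Cell Ranger 4 wrote the matrices. Cell Ranger 6, Seurat 4.0.4 and GRCm38 (mm10) are named per the submitters' processing notes. The annotation release is not given in the sources used here.

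Counts were summed over cells (at least 3000 UMIs, 500 genes, at most 20% mitochondrial UMIs) and scaled to CPM. Ratios are the log2 of CPM + 1 in the first library named over CPM + 1 in the second. Genes with a mean of at least 5 CPM formed the background. Sums carry exact Poisson intervals and shares of cells after thinning carry exact Clopper-Pearson intervals, both at 95%. Shares used cells thinned to 3000 UMIs, the filter minimum, so no cell was left out. With 1 library per group no test was run. The ratio step was tested on simulated data. Clustering (scanpy 1.11.5, leidenalg 0.10.2, Python 3.11.15) used 2000 variable genes per library, scaled within each library, 30 components, 15 neighbours and resolution 0.5, without the 28 genes, the wider lists, the 5 interferon genes and mitochondrial genes. Gene coordinates come from GENCODE vM21 by gene ID and promoters from RefSeq, GRCm38.p6. The genes named were all 28, the 2 highest and 2 lowest ratios of each wider list per comparison with control, and each cluster's leading genes. Members and lists were chosen with earlier results of these data known. Alternatives covered scaling, pseudocount, minimum level, mitochondrial limit, depth, thinning, free RNA, cell call and clusters.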

Additional observations from a re-analysis of the deposited data

How the results depend on the processing

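No paired analysis was possible because each group had 1 library and no replicate numbers to pair, so no library could be left out. Of 11 alternatives that give each gene a ratio, 2 were chosen after seeing the data (without cluster 5, and without clusters 3, 4 and 6). Over these, 26 of 28 genes kept the sign of bulk over control, with Ebp and Scap the exceptions, 17 of 28 that of localized over control and 26 of 28 that of bulk over localized, with Srebf2 and Scap the exceptions. The bulk over control median of the 18 sterol enzymes, -0.62, was -0.52 in cells of 6000 to 20000 UMIs, -0.56 after thinning and also without cluster 5, -0.59 with free RNA taken away and also with a pseudocount of 5 CPM, -0.53 in the largest cluster, -0.72 with median-of-ratios scaling and -0.65 with a minimum of 20 CPM. The bulk over localized median, -0.58, was -0.48 in cells of 6000 to 20000 UMIs and after thinning, -0.61 with free RNA taken away and with a minimum of 20 CPM, -0.60 in the largest cluster, -0.55 with median-of-ratios scaling, -0.59 with the per-library cell call, -0.54 with a pseudocount of 5 CPM, -0.51 without cluster 5 and -0.66 without clusters 3, 4 and 6. The localized over control median, -0.04, was 0.00 in cells of 6000 to 20000 UMIs and with free RNA taken away, -0.15 after thinning, 0.10 in the largest cluster, -0.16 with median-of-ratios scaling and 0.04 without clusters 3, 4 and 6. The count of enzymes at least 1.5-fold lower was 6 of 18 for bulk over control in cells of 6000 to 20000 UMIs, 5 and 4 for bulk over localized in those cells and after thinning, and 0 for localized over control in the largest cluster. The fatty acid median of bulk over control, -0.27, was -0.18 with free RNA taken away, -0.30 in the largest cluster and without clusters 3, 4 and 6, and -0.36 with median-of-ratios scaling. That of bulk over localized, -0.41, was -0.39 in cells of 6000 to 20000 UMIs, -0.38 after thinning, with median-of-ratios scaling and without cluster 5, -0.46 with free RNA taken away, -0.50 in the largest cluster and -0.37 with a pseudocount of 5 CPM. That of localized over control, 0.04, was 0.08 after thinning, 0.17 with free RNA taken away, 0.18 in the largest cluster and -0.08 with median-of-ratios scaling. The all-gene median itself shifted by -0.10, -0.12 and 0.03 under that scaling in the 3 comparisons, and the cause of the other shifts was not tested.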
